A study of Mus musculus with 14 samples.

Results

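Messenger RNA levels of 10 genes of hepatic de novo lipogenesis, the making of fatty acids and triglyceride from carbohydrate, were followed in the livers of obese mice given an adenovirus against the protein kinase Jnk1. The genes were Srebf1, Thrsp, Acly, Fasn, Me1, Pgd, Elovl6, Scd1, Fads1 and Gpam. They were taken as a set by name, as 10 of the 12393 genes that the array names by a single symbol. All probe sets with one of these symbols in the platform annotation were used, 22 of the 22690 on the array. Of these, 20 lay above the filter on low intensity and were tested. The other 2, both for Acly, had a mean under the filter and were not tested.

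Liver RNA had been hybridised to 14 one-colour expression arrays, 1 per sample. All mice were C57BL/6J with diet-induced obesity (DIO in the labels), so the controls carried the obesity as well. One group was treated with vehicle (n = 5). A second group received an adenovirus that carries a hairpin RNA (shRNA) against GFP, a jellyfish protein absent from mice (n = 4, numbered 1, 2, 3 and 5), and the last group one against Jnk1 (n = 5), whose gene is Mapk8. The series title calls the design a knockdown of JNK1 in liver; the labels used here give no dose, time after infection, age or sex, and do not say that the samples were separate mice. The p-values therefore measure only the spread between these samples, which may be technical. Since RNA came from whole liver, fewer cells of a type and less RNA per cell cannot be told apart.

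In lipogenesis, citrate that leaves the mitochondrion is cleaved by Acly to cytosolic acetyl-CoA, which acetyl-CoA carboxylase and then Fasn turn into palmitate with NADPH from Me1 and from Pgd of the pentose phosphate pathway. Elovl6 lengthens palmitate, Scd1 puts in a double bond, Fads1 desaturates polyunsaturated fatty acids, and Gpam attaches the first acyl chain to glycerol phosphate. In liver many of these genes respond to insulin through Srebf1, whose protein SREBP-1c is made active by cleavage, and to carbohydrate. The arrays measure messenger RNA only and say nothing of cleavage or of flux.

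Sequences at annotated starts are shown for the members that shared a less common sequence match. RefSeq (assembly GRCm38.p6) gave promoter windows, from 250 bases before to 50 after an annotated start, for 8 of the 10 genes and 13 starts. Scd1 and Fads1 were not among them. A pattern for the liver X receptor element, a pair of half-sites with a free spacer written after the element known from Srebf1, matched on either strand in 16 of 32851 mouse windows (0.0487%). It was present in 1 window each of Srebf1, 182 bases before the start, and Fasn, 225 bases before the start. The Srebf1 match was built into the choice of the pattern, and the pattern was kept after the Fasn match had been seen. The core of the antioxidant response element, TGACNNNGC, matched in 12.4% of all windows and in 2 of the 13, for Me1 at 6 bases before the start and for Pgd at 3 bases after one of its annotated starts. The Pgd match thus lies inside the transcript of that start, and the printed Pgd sequence need not be a promoter. At the other annotated start of Pgd, and at that of Me1, the pattern had no match. Capitals mark these matches in the minus-strand sequences, which lie at chr11:60210472-60210721 for Srebf1, chr11:120824548-120824797 for Fasn, chr9:86695895-86695974 for Me1 and chr4:149166063-149166142 for Pgd.
Srebf1: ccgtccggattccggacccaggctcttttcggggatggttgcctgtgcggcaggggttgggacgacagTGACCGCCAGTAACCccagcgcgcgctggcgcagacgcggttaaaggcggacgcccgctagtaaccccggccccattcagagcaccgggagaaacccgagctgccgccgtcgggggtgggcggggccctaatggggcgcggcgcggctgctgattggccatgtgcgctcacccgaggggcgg
Fasn: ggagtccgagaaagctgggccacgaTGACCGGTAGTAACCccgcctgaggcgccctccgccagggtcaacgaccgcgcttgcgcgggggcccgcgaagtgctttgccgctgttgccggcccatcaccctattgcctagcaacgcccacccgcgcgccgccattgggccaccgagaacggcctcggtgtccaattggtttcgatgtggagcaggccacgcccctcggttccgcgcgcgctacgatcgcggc
Me1: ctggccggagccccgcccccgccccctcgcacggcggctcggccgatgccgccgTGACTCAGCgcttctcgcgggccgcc
Pgd: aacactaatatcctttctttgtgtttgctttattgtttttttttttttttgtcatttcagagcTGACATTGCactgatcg

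The other patterns were common or unmatched. CCAAT occurred in 8 of the 13 windows and in 7 of the 8 genes, against 37.4% of all windows, and GGGCGG in 6 windows of 5 genes, against 35.7%. Neither the E-box CACGTG (7.15% of all windows) nor a strict pattern for the sterol response element (0.234%) occurred in these 13 windows. The motifs reported and the windows printed were chosen after matches had been seen, and shorter and longer versions had been tried. A match describes letters and shows no binding.

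The targeted gene was lower in the Jnk1 group. Mapk8 probe set 1420932_at differed by -1.31 ± 0.11 (log2, SE) from GFP shRNA and by -1.40 ± 0.10 from vehicle (limma, adjusted p = 3.50e-07 and 4.40e-08), and 1420931_at by -1.12 ± 0.22 and -1.01 ± 0.20. A further Mapk8 probe set, 1437045_at, gave -0.12 ± 0.14 against GFP shRNA and did not pass (adjusted p = 0.561); it was lower than in vehicle by -0.51 ± 0.14 (adjusted p = 0.00696), where GFP shRNA gave -0.39 ± 0.14 (adjusted p = 0.190). All 8 hepatocyte markers on the list were measured, with a summed intensity of 35770 to 38602 in vehicle, 35882 to 37168 with GFP shRNA and 34673 to 36649 with Jnk1 shRNA. Of the 8, 1 was lower than with GFP shRNA (16.5% of all genes) and 4 were lower than in vehicle (19.3%). The largest of these differences was that of Tat, which was 2.14-fold lower than in vehicle (limma, adjusted p = 7.20e-05). With GFP shRNA 2 of the 8 were already lower than in vehicle (0.623% of all genes). Tat read 2049 to 3980 in vehicle, 1327 to 2513 with GFP shRNA and 1172 to 1440 with Jnk1 shRNA. The level of the spike-in RNA, over 18 control probe sets, was lower on the Jnk1 arrays, at 8.36 ± 0.32 (log2, SD, n = 5) against 8.91 ± 0.08 with GFP shRNA and 8.91 ± 0.10 with vehicle. The signal of the 5' end of 18S ribosomal RNA, as deposited, was 52.0, 1976, 195, 702 and 390 on Jnk1 arrays 1 to 5 and 851 to 1567 on the control arrays, so 4 of the 5 Jnk1 arrays lay below every control. Its part in the results was not tested. GFP shRNA array 2 had the highest median intensity as deposited, 58.3 against 41.8 in the lowest array.

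The 10 genes did not move as a block in the Jnk1 group. Me1 and Pgd, which supply NADPH, rose, and Fads1, Elovl6 and Srebf1 fell. Acly, Fasn, Scd1, Gpam and Thrsp passed the test on none of their probe sets. Against GFP shRNA 9 of the 20 tested probe sets passed at an adjusted p under 0.05 (limma, Benjamini-Hochberg over 13575 probe sets), 5 higher and 4 lower. In this comparison 33.1% of all probe sets passed, 17.3% higher and 15.8% lower. Against vehicle 10 passed, 6 higher and 4 lower, where 37.6% of all probe sets passed, 18.9% higher and 18.7% lower. Of the 9, all passed in the same direction against vehicle too, and both comparisons rest on the same 5 Jnk1 arrays.

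Counted by gene, with each gene represented by its probe set of highest mean, 2 of the 10 were higher and 3 lower in both comparisons. The shares over all 8027 genes were 17.7% higher and 16.5% lower against GFP shRNA, and 19.3% each way against vehicle. The groups did not overlap in 8 of the 20 probe sets in either comparison, against 28.1% and 27.7% of all probe sets. The median difference of the 20 was 0.26 (log2) against GFP shRNA and 0.07 against vehicle, where all tested probe sets had medians of -0.01 and -0.02. With 10 genes and backgrounds of this size, the counts are no result about the list as a whole. With arrays scaled to the same median instead of quantile normalized, the split against GFP shRNA was 6 higher and 2 lower, and over all calls 72.3% were higher in place of 52.3%. Adjusted for the spike-in level, 7 of the 20 passed in each comparison, 5 higher and 2 lower. Without GFP shRNA array 2 the counts were again 9 and 10.

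**Figure D1:**
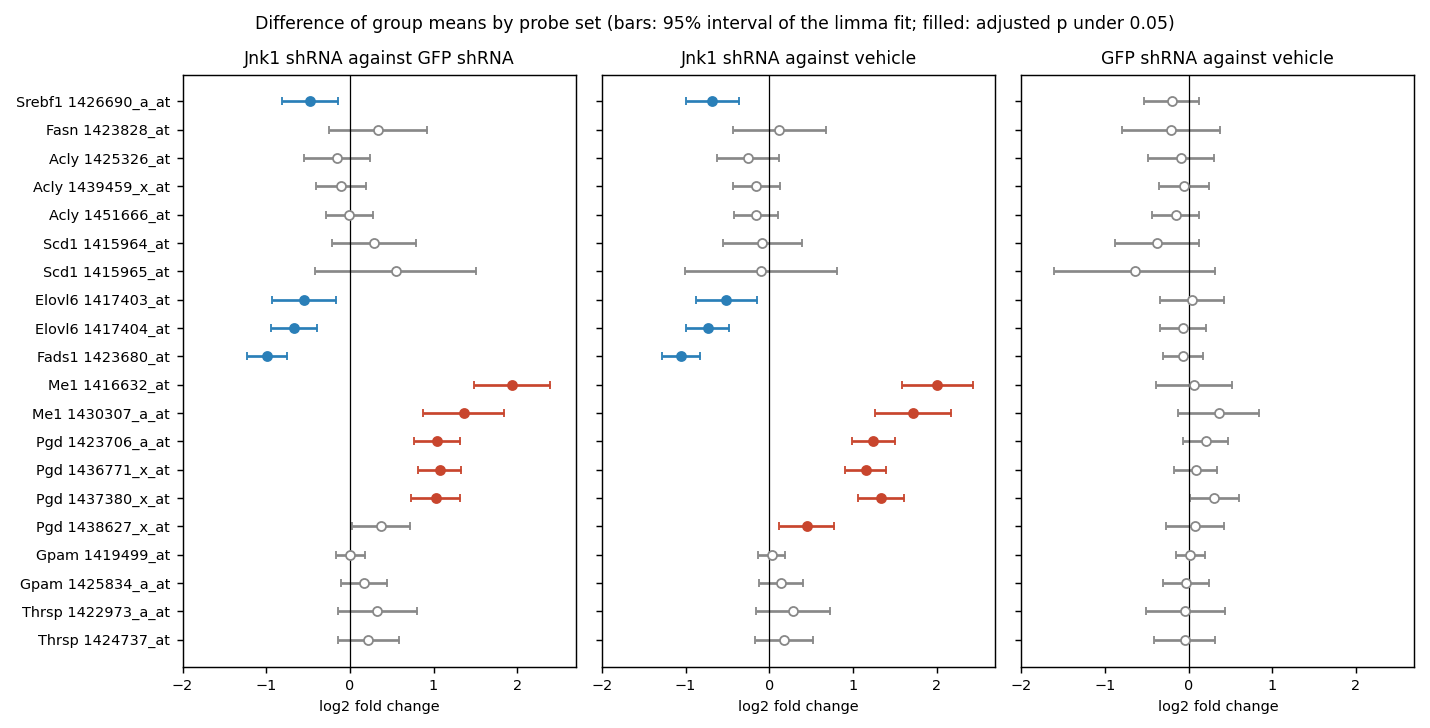
Difference of group means on the log2 scale (x axis) for each of the 20 tested probe sets (rows) in the 3 comparisons (panels), with 95% intervals from limma; filled points passed at an adjusted p under 0.05. Me1 and 3 of the 4 Pgd probe sets lie above 1 in both Jnk1 panels, Fads1 lies near -1, and in the panel of GFP shRNA against vehicle 0 points are filled.

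The control virus by itself left these genes without a call. GFP shRNA against vehicle gave 0 of 20 under limma, with 1 probe set at an unadjusted p under 0.05, where 2.58% of all probe sets passed (2.05% higher and 0.530% lower) and 2075 of 13575 had an unadjusted p under 0.05. The groups overlapped in all 20, while they did not in 6.30% of all probe sets. The differences ran from -0.65 for Scd1 1415965_at to 0.36 for Me1 1430307_a_at, and the lowest adjusted p was 0.301. That p belonged to Pgd 1437380_x_at, whose difference of 0.31 had a 95% interval from 0.01 to 0.60. For Scd1 1415965_at the interval from -1.61 to 0.32 was wide.

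Srebf1, the insulin-responsive transcription factor of the pathway, was lower with Jnk1 shRNA. Its normalized intensity was 1241, 737, 729, 959.7 and 764 on vehicle arrays 1 to 5, and 964, 669, 716 and 696 on GFP shRNA arrays 1, 2, 3 and 5. With Jnk1 shRNA it was 529, 555, 436, 650.2 and 558. Every Jnk1 array lay below every other array, with a narrow gap between the highest Jnk1 array at 650.2 and the lowest GFP array at 669. The difference was -0.48 ± 0.16 (log2, SE, n = 5 and 4) from GFP shRNA and -0.68 ± 0.15 (n = 5 and 5) from vehicle (limma, adjusted p = 0.0283 and 0.00172), or 1.39-fold and 1.60-fold lower.

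The call against GFP shRNA was lost when GFP shRNA array 1 or Jnk1 shRNA array 3 was left out (-0.36 and -0.40, adjusted p = 0.102 and 0.0757), and with median scaling (-0.25, adjusted p = 0.270). With adjustment for the spike-in level both calls were lost, at -0.41 and -0.61 (adjusted p = 0.299 and 0.0941). Thrsp, a small protein induced by thyroid hormone and carbohydrate that acts in lipogenesis, gave 0.22 ± 0.17 and 0.33 ± 0.22 against GFP shRNA on its 2 probe sets (limma, adjusted p = 0.344 and 0.273). Thrsp ran from 1360.4 to 2941 in vehicle, from 1629.6 to 2614 with GFP shRNA and from 2071 to 2769.8 with Jnk1 shRNA on 1424737_at. The groups overlapped throughout, and the interval of its difference from GFP shRNA ran from -0.14 to 0.59.

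**Figure D2:**
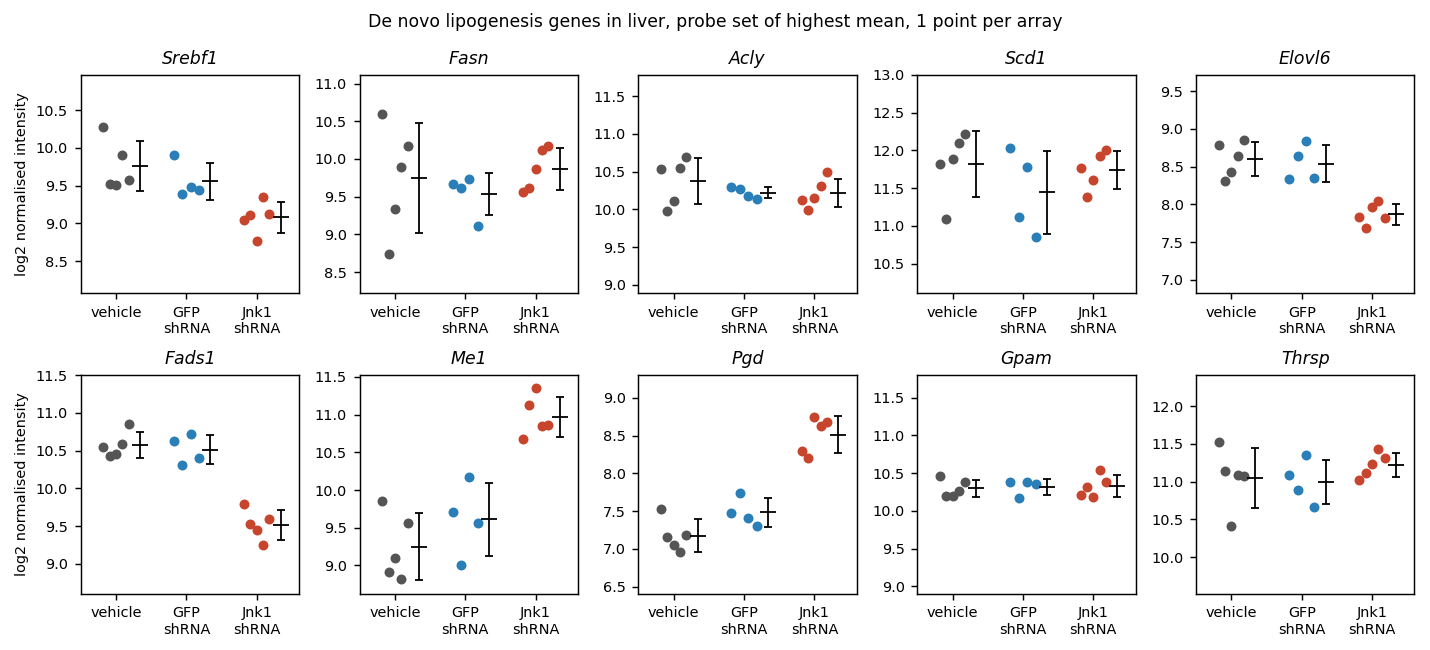
Normalized intensity on a log2 scale (y axis, the same span in every panel) of each of the 10 genes on each of the 14 arrays, with the probe set of highest mean; points are arrays and bars are the group mean and SD. The Jnk1 shRNA arrays lie apart from both control groups for Srebf1, Elovl6, Fads1, Me1 and Pgd, and among them for Fasn, Acly, Scd1, Gpam and Thrsp.

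The enzymes that build palmitate gave no call. Acly, which makes cytosolic acetyl-CoA, was measured by 3 probe sets above the filter. On 1451666_at it lay between 1009 and 1657 in vehicle, 1127 and 1259.9 with GFP shRNA and 1022 and 1445 with Jnk1 shRNA. The differences of the 3 probe sets were -0.01, -0.11 and -0.16 against GFP shRNA and -0.16, -0.16 and -0.25 against vehicle, with adjusted p from 0.288 to 0.978 (limma). Against GFP shRNA, 1451666_at had an interval from -0.29 to 0.27. All 3 Acly differences from GFP shRNA turned positive with median scaling (0.06 to 0.17), so Acly has no settled direction there. Acly probe sets 1438389_x_at and 1439445_x_at lay under the filter, with intensities of at most 42.9 and 28.9.

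Fasn, the multifunctional fatty acid synthase, had the largest spread in vehicle among the probe sets of highest mean. Its intensity was 1546, 429, 647, 953 and 1149.6 on vehicle arrays 1 to 5, a 3.61-fold range between the highest and the lowest. It was 816, 786, 849 and 556 with GFP shRNA, and 754, 785, 935, 1116 and 1159 with Jnk1 shRNA. The Jnk1 arrays lay inside the vehicle range and 3 of them above every GFP array. Fasn differed by 0.33 ± 0.28 (SE, 95% interval -0.25 to 0.92) from GFP shRNA and by 0.12 ± 0.26 (-0.43 to 0.68) from vehicle (limma, adjusted p = 0.378 and 0.752).

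Me1, the cytosolic malic enzyme that makes NADPH from malate, had the largest rise of the 10 genes. On 1430307_a_at it read 928, 482, 548, 452 and 755 in vehicle and 836, 514, 1149.6 and 756 with GFP shRNA. With Jnk1 shRNA it read 1642, 2234, 2603, 1839 and 1859. Every Jnk1 array lay above every other array. The rise was 1.36 ± 0.23 (log2, SE) over GFP shRNA and 1.72 ± 0.21 over vehicle (limma, adjusted p = 2.47e-04 and 1.02e-05), or 2.57-fold and 3.30-fold. The other Me1 probe set, 1416632_at, read 181 to 301 in vehicle, 158 to 314 with GFP shRNA and 667 to 1336 with Jnk1 shRNA. Its groups did not overlap either, and it rose 3.84-fold over GFP shRNA and 4.03-fold over vehicle (1.94 ± 0.21 and 2.01 ± 0.20, adjusted p = 5.24e-06 and 1.13e-06).

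Pgd, the second NADPH-forming enzyme of the pentose phosphate pathway, rose on 3 of its 4 probe sets. On 1437380_x_at it read 185, 143, 132, 124 and 145 in vehicle and 179, 214, 170.4 and 157 with GFP shRNA. With Jnk1 shRNA it read 314, 295, 430.5, 394 and 411. The Jnk1 arrays lay above all others without overlap. The rise was 1.03 ± 0.14 over GFP shRNA and 1.34 ± 0.13 over vehicle (limma, adjusted p = 3.70e-05 and 9.15e-07), or 2.04-fold and 2.52-fold. Probe sets 1423706_a_at and 1436771_x_at gave 1.04 ± 0.13 and 1.07 ± 0.12 over GFP shRNA, and 1.24 ± 0.12 and 1.16 ± 0.12 over vehicle.

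The last Pgd probe set, 1438627_x_at, moved less. It gave 0.37 ± 0.16 over GFP shRNA and 0.45 ± 0.16 over vehicle (limma, adjusted p = 0.0965 and 0.0326), with overlapping groups. Jnk1 array 2 read 108 on it and the other 4 read 170.2 to 189. The call against vehicle was lost on leaving out vehicle array 1 or 3 or Jnk1 array 1, 3, 4 or 5 (0.33 to 0.45, adjusted p from 0.0507 to 0.0887), and the one against GFP shRNA was gained without Jnk1 array 2 (0.52, adjusted p = 0.00831). Probe sets whose names end in x_at can hold probes shared with similar sequences, so the 4 Pgd probe sets need not measure the same transcripts.

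Among the enzymes that lengthen and desaturate, Fads1 and Elovl6 fell and Scd1 gave no call. Fads1, the desaturase that forms arachidonic and eicosapentaenoic acid, read 1497, 1377, 1405, 1546 and 1859 in vehicle and 1578, 1268, 1685 and 1354 with GFP shRNA. With Jnk1 shRNA it read 885, 739, 696, 609 and 771. The highest Jnk1 array lay well below the lowest GFP array. The fall was -0.99 ± 0.11 from GFP shRNA and -1.06 ± 0.11 from vehicle (log2, SE; limma, adjusted p = 7.12e-06 and 1.17e-06), or 1.99-fold and 2.08-fold lower.

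Elovl6, which lengthens palmitate to stearate, fell on both of its probe sets. On 1417404_at it read 442, 318, 345, 398 and 461 in vehicle and 323, 399, 458 and 325 with GFP shRNA. With Jnk1 shRNA it read 228, 206, 250.01, 263 and 225. All Jnk1 arrays lay below all others. The fall was -0.67 ± 0.13 from GFP shRNA and -0.73 ± 0.12 from vehicle (limma, adjusted p = 8.15e-04 and 1.68e-04), or 1.59-fold and 1.66-fold lower. Probe set 1417403_at gave -0.55 ± 0.18 and -0.51 ± 0.17 with overlapping groups (adjusted p = 0.0275 and 0.0258). Those 2 calls were less steady: against GFP shRNA the call was lost without GFP array 3 or 5 or Jnk1 array 1 or 3, and against vehicle without vehicle array 1, 4 or 5 or Jnk1 array 1 or 3 (-0.41 to -0.55, adjusted p from 0.0508 to 0.101). They were lost as well with median scaling (-0.37 and -0.44) and with adjustment for the spike-in level (-0.22 and -0.18, adjusted p = 0.637 and 0.693).

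Scd1, which places the double bond in stearate and palmitate, varied widely in every group on 1415965_at. It read 717, 445, 782, 1377 and 2161 in vehicle, 932, 444, 790.4 and 402 with GFP shRNA and 771, 389, 724, 1303 and 1872 with Jnk1 shRNA. The 3 groups covered nearly the same range apart from the absence of GFP arrays above 932. The difference was 0.55 ± 0.45 (95% interval -0.41 to 1.51) from GFP shRNA and -0.10 ± 0.43 (-1.01 to 0.81) from vehicle (limma, adjusted p = 0.377 and 0.884). Scd1 1415964_at gave 0.29 ± 0.24 and -0.08 ± 0.22. Its SD (log2) was 0.44 in vehicle, 0.55 with GFP shRNA and 0.25 with Jnk1 shRNA. The intervals of 1415964_at, the Scd1 probe set of highest mean, ran from -0.21 to 0.79 against GFP shRNA and from -0.56 to 0.39 against vehicle.

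Gpam, the mitochondrial enzyme that starts glycerolipid synthesis, had the narrowest interval of the 10 genes, on 1419499_at. It read 1173 to 1405 in vehicle, 1148 to 1340.3 with GFP shRNA and 1161 to 1489 with Jnk1 shRNA, and the groups lay on top of each other. The difference was 0.00 ± 0.08 (95% interval -0.17 to 0.18) from GFP shRNA and 0.03 ± 0.08 (-0.14 to 0.19) from vehicle (limma, adjusted p = 0.970 and 0.810). The other Gpam probe set, 1425834_a_at, gave 0.17 ± 0.13 and 0.14 ± 0.12. Its upper bounds were 0.45 and 0.40.

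The spike-in level moved with the Jnk1 group, and the called genes were also read on the Jnk1 array whose level lay nearest to the controls. On that array, number 2 with a spike-in level of 8.76, Me1 1430307_a_at read 2234 and Pgd 1437380_x_at 295. Fads1 read 739 there, Elovl6 1417404_at 206 and Srebf1 555. Each lay outside the range of both control groups, but on these probe sets every Jnk1 array did, as the groups did not overlap. The reading therefore tells nothing of the spike-in level. Elovl6 1417403_at and Pgd 1438627_x_at, called with overlapping groups, read 147 and 108 on that array, inside the vehicle range. With adjustment for the spike-in level, the difference from GFP shRNA was 1.59 ± 0.36 for that Me1 probe set, 0.96 ± 0.22 for Pgd, -1.07 ± 0.18 for Fads1 and -0.70 ± 0.21 for Elovl6, and all 4 passed (limma, adjusted p from 0.00100 to 0.0312). In the same fit Me1 1416632_at gave 2.35 ± 0.32 and Pgd 1423706_a_at and 1436771_x_at gave 0.87 and 0.91. Srebf1 did not pass there, at -0.41 ± 0.25 from GFP shRNA and -0.61 ± 0.25 from vehicle (limma, adjusted p = 0.299 and 0.0941). Nor did Elovl6 1417403_at, at -0.22 ± 0.27 from GFP shRNA (adjusted p = 0.637). Because the level moved with the group, this fit cannot fully separate them, and the part of the level in the differences was not tested.

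Markers of other cell types differed too. Of 5 tested Kupffer cell markers all 5 were lower than with GFP shRNA, with summed intensities of 1512 to 1888 in the Jnk1 group, 2734 to 2916 with GFP shRNA and 2016 to 3292 in vehicle. The sums for each cell type take in every marker of its list on the array, also those under the filter that were not tested. Of 5 endothelial markers 3 were lower, and of 4 stellate cell markers 2, where 16.5% of all genes were lower. Against vehicle 3 Kupffer cell, 3 endothelial and 2 stellate cell markers were lower, where 19.3% of all genes were. Of the T and NK cell markers 2 were tested: neither differed between the viruses, and both were higher than in vehicle, with summed intensities of 172 to 195 with Jnk1 shRNA, 111 to 209 with GFP shRNA and 60.8 to 133 in vehicle. Of 2 exocrine pancreas markers 1 was higher in either Jnk1 comparison, and none of the 4 cholangiocyte markers was above the filter. GFP shRNA against vehicle gave 1 Kupffer cell marker higher and 2 lower, and 1 stellate cell and 1 T and NK cell marker higher. No endothelial or exocrine pancreas marker passed in that comparison, where 2.18% of all genes were higher and 0.623% lower. Fat cells also express most of the 10 genes. Of 7 adipocyte markers 3 were tested, and none differed between the viruses, with summed intensities of 322 to 510 and 321 to 441, against 268 to 456 in vehicle. Against vehicle Cidec was higher with Jnk1 shRNA by 1.56 ± 0.28 and Retn was lower (-0.92 ± 0.34), and Cidec was also higher with GFP shRNA than in vehicle, by 1.67 ± 0.30. Adipoq and Lep, which define fat cells, lay under the filter and read at most 24.6 and 16.6 on any array. Whether changes in the makeup of the tissue take part in the changes of the 10 genes was not tested.

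Within a group, several of the 10 genes were high or low on the same arrays. Vehicle array 1 was the highest of its group for 6 genes and vehicle array 5 for the other 4, whereas over all genes these arrays were highest for 23.5% and 14.9%. Vehicle array 2 was the lowest for 6 (19.1% of all genes), among them Fasn, Scd1 and Elovl6. With GFP shRNA, array 3 was highest for 6 (23.5% of all genes) and array 5 lowest for 5 (19.1%). With Jnk1 shRNA array 4 was highest for 4 (15.7%) and array 5 for 3 (15.7%). Array 2 was lowest for 4 (24.3%) and array 1 for 3 (21.6%). Jnk1 arrays 4 and 5 were each above the group mean for 8 genes, and arrays 1 and 2 for 2 and 3. The SD within groups was 0.49 for Fasn, 0.42 for Scd1, 0.40 for Me1, 0.30 for Thrsp and 0.27 for Srebf1. It was 0.22 for Acly and for Pgd, 0.21 for Elovl6, 0.19 for Fads1 and 0.12 for Gpam. The median over all tested probe sets was 0.22. These are descriptions without a test, and genes on 1 array share its RNA and its scaling.

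**Figure D3:**
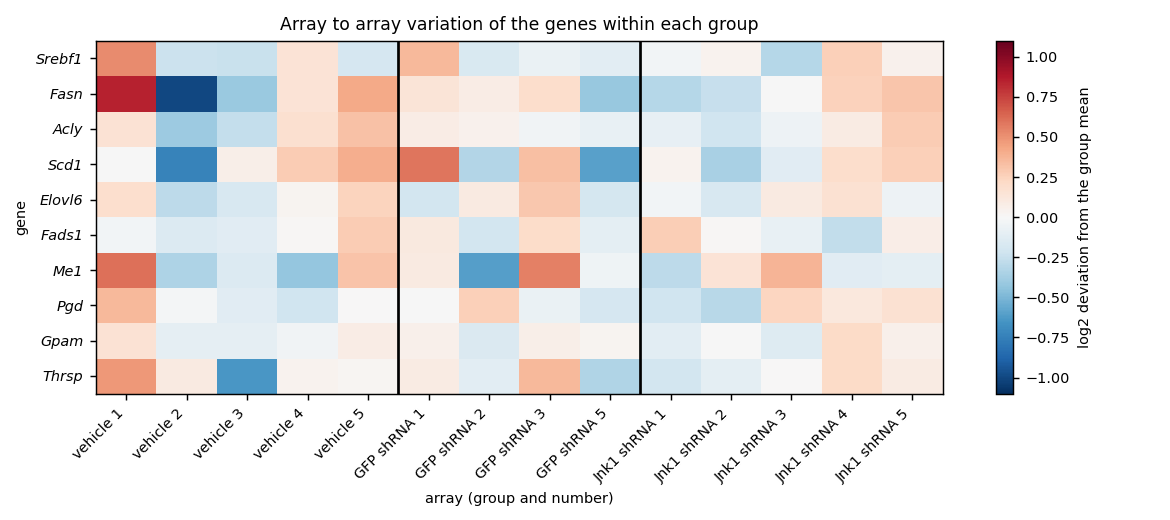
Deviation of each gene from its group mean on the log2 scale (colour) on each of the 14 arrays (columns), with the probe set of highest mean. Fasn and Scd1 are low together on vehicle array 2, and most genes are above the mean on vehicle arrays 1 and 5.

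The genes whose pattern over the 14 arrays lay nearest to that of Srebf1 were Fam133b, Pltp, Grsf1, Stx17 and Pccb. Their root mean square differences from it, on centred log2 values, ran from 0.157 for Fam133b to 0.196 for Pccb, where the median over 8026 genes was 0.453. For Fasn the nearest were Zfp33b, Tusc3, Spry2, Btg1 and Kcnmb2, at 0.293 to 0.318 against a median of 0.536. The SD over the 14 arrays was 0.47 for Fasn and 0.39 for Srebf1. No member was among the nearest 5 of either gene.

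The rest of the pathway was mixed in the same manner. Of 65 other genes listed for fatty acid and triglyceride synthesis, 53 had a probe set with that symbol alone and 51 were tested. Against GFP shRNA 9 were higher and 8 lower, with a median of 0.06, and against vehicle 8 were higher and 10 lower, with a median of 0.00. Those shares lie near the 17.7% and 16.5%, and the 19.3% each way, found over all genes, so the counts show nothing particular to the pathway. With adjustment for the spike-in level 9 in place of 17 passed against GFP shRNA, and with median scaling 12 were higher and 1 lower. The genes without such a probe set included G6pdx, which makes NADPH early in the pentose phosphate pathway, and Insig1.

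Among 14 tested regulators, Mlx, the partner of the carbohydrate sensor ChREBP, rose by 0.86 ± 0.09 over GFP shRNA and 0.78 ± 0.09 over vehicle (limma, adjusted p = 4.05e-06 and 3.47e-06). Insig2, which retains SREBP in the endoplasmic reticulum, differed by -0.48 ± 0.07 and -0.47 ± 0.07. Mbtps1, a protease that cleaves SREBP, differed by -0.32 ± 0.09 and -0.32 ± 0.08. Ppargc1b, a coactivator, rose by 1.51 ± 0.35 over GFP shRNA but gave 0.34 ± 0.33 against vehicle and did not pass there (adjusted p = 0.439); GFP shRNA against vehicle gave -1.16 ± 0.35 (adjusted p = 0.0990). Rxra was lower than in vehicle (-0.44 ± 0.15). Mlxipl, the gene of ChREBP, gave 0.28 ± 0.14 over GFP shRNA and did not pass (adjusted p = 0.141).

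Beside Pgd, the NADPH group held 2 rises and 1 fall of 7 tested in either Jnk1 comparison, near the shares over all genes of 34.1% called against GFP shRNA and 38.6% against vehicle. Taldo1, transaldolase of the pentose phosphate pathway, rose by 0.71 ± 0.13 over GFP shRNA and 0.87 ± 0.12 over vehicle (limma, adjusted p = 5.74e-04 and 3.73e-05). Idh1, the cytosolic NADP-dependent isocitrate dehydrogenase, rose by 0.27 ± 0.07 and 0.24 ± 0.06. H6pd, which makes NADPH inside the endoplasmic reticulum, differed by -0.63 ± 0.19 and -0.79 ± 0.18. Tkt, transketolase, gave -0.11 ± 0.08 and -0.02 ± 0.08 and did not pass.

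Around Acly and Fasn, Acss2, which makes acetyl-CoA from acetate, differed by -0.45 ± 0.16 from GFP shRNA and -0.68 ± 0.15 from vehicle (limma, adjusted p = 0.0335 and 0.00154). Acaca and Acacb, the acetyl-CoA carboxylases, gave -0.08 ± 0.15 and 0.42 ± 0.52 against GFP shRNA, and neither passed. Around Elovl6 and Fads1, the elongase Elovl5 differed by -0.40 ± 0.10 and -0.26 ± 0.10 and Hsd17b12, of the elongation cycle, by -0.28 ± 0.06 from GFP shRNA, with -0.16 ± 0.06 against vehicle (adjusted p = 0.0538). Tecr, which completes that cycle, rose by 0.42 ± 0.08 and 0.26 ± 0.07. Fads2, the desaturase that acts before Fads1, is named here after its values were seen; it gave 0.09 ± 0.12 and 0.17 ± 0.12 and did not pass, where Fads1 fell by 0.99 and 1.06.

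Of 11 tested genes of acyl activation and glycerolipid synthesis, 2 were higher and 2 lower than with GFP shRNA. Lpin2, a phosphatidate phosphatase, differed by -0.83 ± 0.12 and Gpat4, an acyltransferase of the endoplasmic reticulum with the same reaction as Gpam, by -0.39 ± 0.13 (limma, adjusted p = 5.98e-05 and 0.0354). Dgat1, which makes triglyceride, and Acsl5, which activates fatty acids, rose by 0.48 ± 0.11 and 0.41 ± 0.06. Against vehicle Gpat4 differed by -0.83 ± 0.13, Lpin2 by -0.59 ± 0.11 and Dgat2 by -0.29 ± 0.06, and Acsl5 rose by 0.39 ± 0.06. Dgat1 gave 0.23 ± 0.11 against vehicle and did not pass (adjusted p = 0.107). Of the sugar genes, Tkfc and Pfkl rose by 1.29 ± 0.23 and 1.00 ± 0.20 over GFP shRNA and by 1.27 ± 0.22 and 0.76 ± 0.19 over vehicle, while the pyruvate kinase Pklr was lower than in vehicle (-0.46 ± 0.13).

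GFP shRNA against vehicle gave 0 higher and 2 lower of the 51, where 2.18% of all genes were higher and 0.623% lower. These were Dgat2 (-0.24 ± 0.06, limma adjusted p = 0.0459) and Lpin1 (-0.76 ± 0.19, adjusted p = 0.0473), both near the threshold. Neither passed with median scaling, without the intensity filter, or on leaving out vehicle array 2, 3, 4 or 5, GFP shRNA array 2 or 5 or Jnk1 array 3, 4 or 5. The count was 1 without GFP shRNA array 3 or Jnk1 array 1 or 2, and 3 without vehicle array 1 or GFP shRNA array 1.

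**Figure D4:**
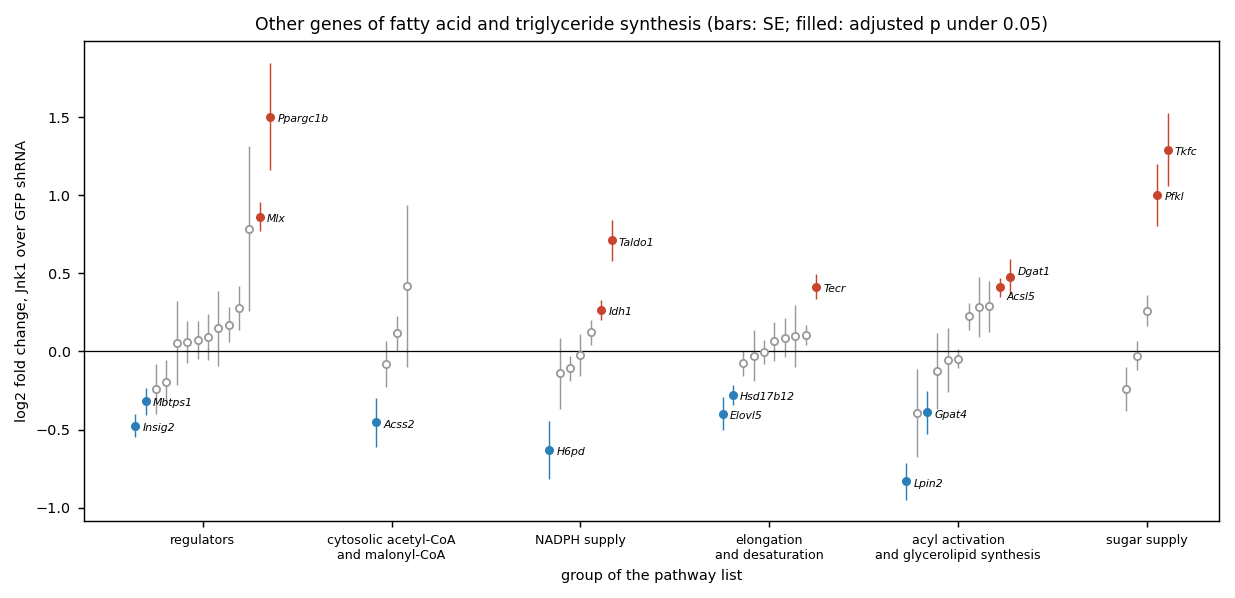
Difference between Jnk1 shRNA and GFP shRNA on the log2 scale (y axis) for the 51 tested genes of the pathway list that are not among the 10, by group of the list (x axis); bars are SE and filled, named points passed at an adjusted p under 0.05. Among the filled points both directions occur in every group except those of acetyl-CoA, with 1 call, and sugar supply, with 2.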

How the data were processed

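Total RNA of 14 mouse liver samples had been measured on 1-colour arrays. The authors deposited linear intensity values per probe set, with software, background correction and detection calls not given in the sources used here. Trimmed by 2% at both ends, the array means were 150.05 to 150.06. Array medians spanned 0.48 on the log2 scale, above the limit of 0.2 set for leaving the arrays as they were, so the deposited intensities were quantile normalized. Values under the 5th percentile (2.01) were raised to it, and log2 was taken. The 64 control probe sets and the 40% with the lowest mean (up to an intensity of 28.4) were left out, which left 13575 of 22690 probe sets and 8027 genes. Symbols came from the platform annotation: 20393 probe sets had 1 symbol, 691 several and 1606 none, and those with several were given no name.

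limma 3.58.1 (R 4.3.3) was fitted to 3 group means over all 14 arrays with an intensity trend (11 residual and 4.94 prior degrees of freedom), and p-values were adjusted by Benjamini-Hochberg over all 13575 probe sets. Intervals are at 95% from the same fit. The fit was tested on simulated data. The number of arrays limits the precision. Genes of the pathway list and of the 8 marker lists were taken by their probe set of highest mean. Named are all 10 genes with every probe set, Mapk8, up to 4 genes of each pathway group with the smallest p in each comparison, and the 5 genes nearest to Srebf1 and to Fasn. Replicate numbers were shared between groups in the labels, but the deviations of same-numbered arrays correlated between -0.24 and 0.12, so the numbers were not taken as pairs. Alternatives were the normalization, the floor, the filter, the trend, the arrays fitted, the spike-in level, the replicate block and leaving out each array. The members, the lists and the spike-in alternative were chosen with earlier results of these data known.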

Additional observations from a re-analysis of the deposited data

Results flagged for a closer look

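Of 60 group tests for a single array far from the rest (20 probe sets in 3 groups), 2 passed the limit, where chance gives about 5%. Pgd 1438627_x_at was low on Jnk1 shRNA array 2, at 6.76 on the log2 scale (an intensity of 108, with the nearest Jnk1 array at 170.2). Gpam 1419499_at was low on GFP shRNA array 2, at 10.17 (an intensity of 1148, with the nearest GFP array at 1306).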

How the results depend on the processing

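The counts of the 10 genes' probe sets kept their size: 7 to 10 passed against GFP shRNA, 7 to 10 against vehicle, and 0 for GFP shRNA against vehicle under every alternative run (as deposited, median scaling, pseudocount of 16, no filter, a stricter filter, no trend, spike-in level, replicate block, 2 groups only, each array left out). Elovl6 1417404_at, Fads1, Me1 and Pgd 1423706_a_at, 1436771_x_at and 1437380_x_at lost no call in the Jnk1 comparisons. Median scaling moved the median of all probe sets to 0.09 for Jnk1 against GFP shRNA and to -0.11 for GFP shRNA against vehicle. Without the filter Srebf1 and Elovl6 1417403_at lost their calls against GFP shRNA (limma, adjusted p = 0.0550 and 0.0511). Pgd 1438627_x_at lost its call against vehicle there (0.0554), with 2 groups only (0.0522) and with adjustment for the spike-in level (0.26, adjusted p = 0.519). This probe set passed against GFP shRNA with median scaling (0.52, adjusted p = 0.0217). The pathway list gave 9 calls in place of 17 against GFP shRNA with the spike-in level; for GFP shRNA against vehicle it gave 0 in place of 2 with median scaling, without the filter or without the trend, 1 with the spike-in level, the replicate block or 2 groups only, and 0 to 3 with an array left out. With the replicate number as a block the 10 genes gave 9, 10 and 0 calls and the pathway list 16, 19 and 1, in the order Jnk1 against GFP shRNA, Jnk1 against vehicle and GFP shRNA against vehicle; the block changed no call of the 10 genes. The cause of these changes was not tested.

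Signs turned only for differences that had not passed. As deposited, Acly 1451666_at gave 0.0081 against GFP shRNA, and Gpam 1419499_at -0.020 for Jnk1 and -0.035 for GFP shRNA against vehicle. With median scaling, Acly 1425326_at, 1439459_x_at and 1451666_at gave 0.055, 0.085 and 0.17 against GFP shRNA, and GFP shRNA against vehicle gave -0.048 for Me1 1416632_at, -0.069 for Elovl6 1417403_at, -0.17 for Gpam 1419499_at and -0.0052 for Pgd 1436771_x_at. With the spike-in level these Acly probe sets gave 0.091, 0.11 and 0.077 against GFP shRNA, and 1425326_at and 1439459_x_at gave 0.0012 and 0.064 against vehicle. With the block Gpam 1419499_at gave -0.017 against GFP shRNA. With each array left out, GFP shRNA against vehicle ran from -0.22 to 0.14 for Thrsp 1422973_a_at, from -0.21 to 0.069 for Thrsp 1424737_at, from -0.14 to 0.027 for Acly 1439459_x_at, from -0.10 to 0.12 for Elovl6 1417403_at, from -0.0032 to 0.075 for Gpam 1419499_at, from -0.13 to 0.062 for Gpam 1425834_a_at, from -0.045 to 0.13 for Pgd 1438627_x_at, from -0.13 to 0.0069 for Fads1 1423680_at, from -0.19 to 0.034 for Acly 1425326_at, from -0.16 to 0.0050 for Elovl6 1417404_at and from -0.086 to 0.25 for Me1 1416632_at. Jnk1 against vehicle ran from -0.13 to 0.33 for Fasn 1423828_at, from -0.37 to 0.20 for Scd1 1415965_at, from -0.26 to 0.015 for Scd1 1415964_at and from -0.026 to 0.067 for Gpam 1419499_at. Jnk1 against GFP shRNA ran from -0.076 to 0.049 for Acly 1451666_at and from -0.048 to 0.041 for Gpam 1419499_at. Without detection calls no bound on background could be set.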
